A study of Homo sapiens with 32 samples.

Results

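The genes examined were 7 that encode surface proteins of prostate cancer cells and that are used or have been put forward as targets of therapy, namely *FOLH1*, *STEAP1*, *STEAP2*, *STEAP4*, *PSCA*, *SLC45A3*, and *CD276*. They were chosen by symbol, and all 7 were found among the 25498 genes of the deposited tables. RNA-Seq had been performed on LNCaP cells, an androgen-dependent human prostate cancer line that was grown from a lymph node metastasis, in 8 groups of 4 libraries. Cells of 1 group were grown in FBS, and all other cells had been moved a day before to medium with charcoal-stripped serum (CSS), which is depleted of steroid hormones. Of these, 1 group received no ligand, and the others received 100 ng/mL EGF or 100 ng/mL NRG-1 for 5 minutes, 1 hour, or 4 hours. Each group held 2 libraries from each of 2 batches. The labels call the libraries biological replicates without naming separate cultures, so that *P* values measure the spread between these libraries, and all of them come from 1 cell line. Expected counts summed to between 63822654 and 92401724 per library.

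*FOLH1* encodes prostate-specific membrane antigen (PSMA), a membrane peptidase that releases glutamate from folates and from a neuropeptide and that is bound by imaging tracers and radioligand drugs. The STEAP proteins are membrane reductases of iron and copper, and STEAP1, which lacks part of the reductase, is a target of antibodies and T cell engagers. *PSCA* encodes a GPI-anchored protein of the Ly6 family, *SLC45A3* encodes the transporter-like protein prostein, and *CD276* encodes the immune checkpoint ligand B7-H3. Androgen signaling is known to lower PSMA in prostate cancer cells and to raise prostein. EGF binds EGFR and NRG-1 binds HER3 and HER4, and each of these receptors can pair with HER2.

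The cells carried the transcripts of luminal prostate cells. The 4 luminal markers *KRT8*, *KRT18*, *KLK3*, and *HOXB13* were present in every library, with a summed level of 1470.0 to 4085 TPM (a level scaled for transcript length and for the library). Of the markers of other cell types, 2 of 3 for basal cells (*KRT5*, *TP63*), 2 of 4 for fibroblasts (*COL1A2*, *DCN*), 2 of 3 for endothelium (*PECAM1*, *CDH5*), 1 of 3 for leukocytes (*CD3E*), and 2 of 3 for neuroendocrine cells (*CHGA*, *INSM1*) had at most 3 counts in every library. The other markers of these lists (*KRT14*, *COL1A1*, *LUM*, *VWF*, *PTPRC*, *CD68*, and *SYP*) were detected. The summed level was 0.01 to 2.17 TPM for basal cells, 1.51 to 5.31 TPM for fibroblasts, 0.71 to 3.11 TPM for endothelium, and 0.87 to 1.59 TPM for neuroendocrine cells. *KRT14* was lower in CSS than in FBS (log2 -3.84, edgeR adjusted *P* = 8.28e-12), and *VWF* was lower after 4 hours of EGF than in CSS (log2 -1.16, edgeR adjusted *P* = 4.09e-08). The leukocyte sum was 3.24 to 4.02 TPM in CSS, 12.2 to 16.2 TPM after 4 hours of EGF, and 6.56 to 10.8 TPM after 4 hours of NRG-1. Within it, *CD68*, which encodes a lysosomal protein, was higher than in CSS by 2.03 and 1.38 on the log2 scale (edgeR adjusted *P* = 3.66e-13 and 1.51e-09). The part of these markers in the antigen values was not tested. RNA of whole cultures was measured, so that fewer expressing cells and less RNA per cell cannot be told apart, and protein at the cell surface was not measured.

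Set side by side per length, the antigens spanned a wide range. The median over all 32 libraries was 1445 TPM for *FOLH1* (lowest 694.7, highest 1639), 678 TPM for *STEAP1* (608 to 879), and 356 TPM for *STEAP2* (154 to 485). *CD276* had a median of 103 TPM (55.3 to 129) and *SLC45A3* of 31.25 TPM (16.15 to 81.4). *PSCA* was low, with 1.39 to 5.62 TPM, and *STEAP4* lay between 0 and 0.17 TPM, close to the limit of detection. *FOLH1* was above *STEAP1* in every FBS and CSS library, by a smaller distance in FBS. In FBS the libraries had 694.7 to 924 TPM of *FOLH1* and 608 to 730 TPM of *STEAP1*, which overlapped, whereas in CSS they had 1474 to 1620 and 669.6 to 800.0 TPM, which did not. *SLC45A3* and *CD276* overlapped in FBS, at 53.6 to 81.4 and 55.3 to 94.99 TPM. They already stood apart in CSS without ligand, at 26.7 to 32.9 and 95.85 to 109.8 TPM. After 4 hours of NRG-1 they had 16.15 to 25.7 and 87.8 to 127 TPM.

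**Figure D1:**
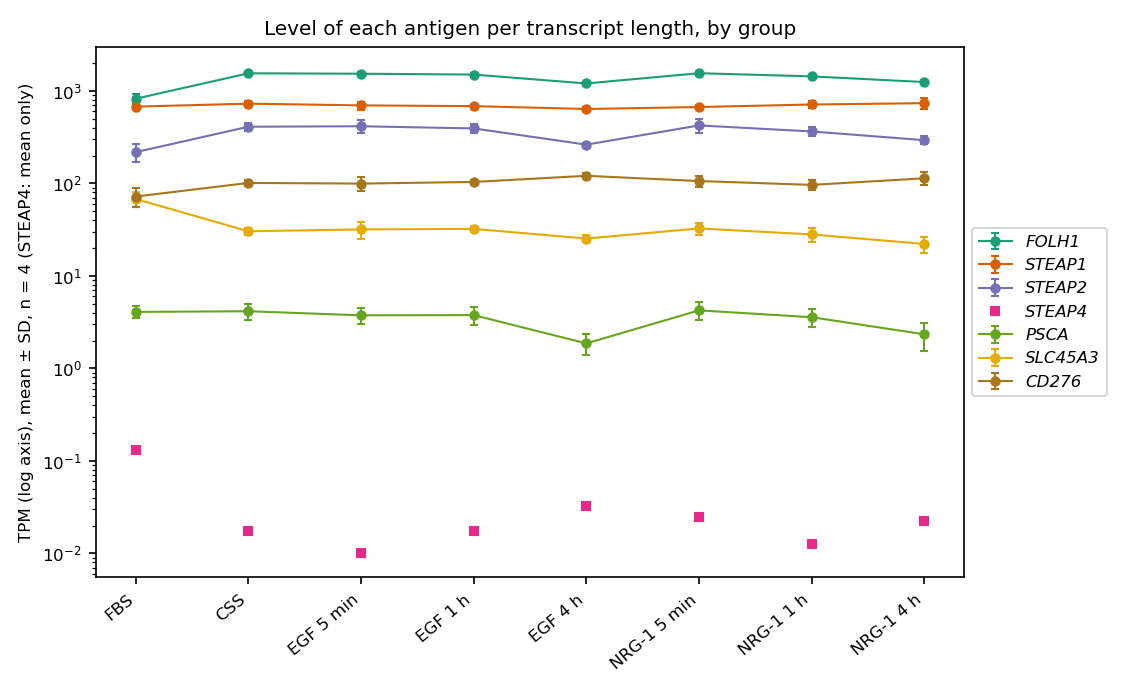
Mean TPM of each antigen (log axis) in the 8 groups, with SD over 4 libraries. *FOLH1* lies highest in every group, *STEAP4* (mean only, since its values reach 0) stays below 0.2 TPM, and *SLC45A3* and *CD276* meet in FBS and separate in CSS.

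Serum stripping was examined first, by comparing CSS with FBS. The call rule was an adjusted *P* value below 0.05 in edgeR's quasi-likelihood test over 16995 genes, which called 52.7% of all genes in this comparison. It called 5 of the 7 antigens, 3 higher where 26.8% of all genes were called higher and 2 lower where 26% were called lower. *FOLH1*, *STEAP2*, and *CD276* rose, and *SLC45A3* and *STEAP4* fell. Of these, *SLC45A3* and *STEAP4* were differentially expressed genes (DEGs), with a log2 fold change beyond 1 as well, a rule met by 8.71% of all genes. The median log2 fold change of the 7 antigens was -0.10, beside 0.01 over all genes tested.

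*FOLH1* had 1347, 1382, 1313, and 1346 CPM (counts scaled to library size by TMM) in the FBS libraries, in the order batch 1 replicates 1 and 2 and batch 2 replicates 1 and 2, which is kept throughout. In CSS it had 2248, 2180, 2176, and 2290 CPM. Every CSS library was above every FBS library, with little spread within either serum. The fitted rise was 1.65-fold (log2 0.72, SE 0.05, edgeR adjusted *P* = 1.78e-12). The peptidase was the most abundant of the antigens in both sera.

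*STEAP2*, a metalloreductase, had 975, 946, 836, and 731 CPM in FBS and 1549, 1516, 1393, and 1396 CPM in CSS. The sera did not overlap, and within each serum the batch 1 libraries were the higher ones. It rose 1.68-fold (log2 0.75, SE 0.05, edgeR adjusted *P* = 6.57e-13). Across all groups *STEAP2* was lower in batch 2 than in batch 1 by a log2 difference of -0.15 (edgeR adjusted *P* = 1.67e-05), and the batch was a term of the fit.

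*STEAP1* gave 406, 536, 502, and 609 CPM in FBS and 477, 413, 462, and 567 CPM in CSS. The sera overlapped, and the test did not call it (log2 -0.10, 95% CI -0.36 to 0.17, edgeR adjusted *P* = 0.557). On the TPM scale, where limma put the median of all genes in this comparison at up to 0.19 (log2), its sign was the opposite (log2 0.11, adjusted *P* = 0.179 to 0.242). *STEAP1* and *STEAP2*, whose difference in response was not tested, are next to each other on chromosome 7 in the RefSeq annotation.

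*STEAP4*, the family member known for responses to androgen and to nutrients, was counted 31, 18, 38, and 23 times in the FBS libraries and 2, 5, 3, and 2 times in CSS. All FBS libraries were above all CSS libraries, at a level where single reads matter. The summed counts, 110 against 12, gave a ratio of FBS to CSS of 10.2 (exact 95% interval 5.60 to 20.3, counting error only), and the fitted log2 fold change was -3.28 (SE 0.41, edgeR adjusted *P* = 9.59e-08).

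*SLC45A3* had 156, 128, 160, and 137 CPM in FBS and 56.0, 58.2, 59.7, and 54.5 CPM in CSS. The lowest FBS library lay far above the highest CSS library. Prostein transcripts fell to 0.393 of the FBS level (log2 -1.35, SE 0.09, edgeR adjusted *P* = 1.58e-13), the lowest adjusted *P* value of the 7 in this comparison.

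*PSCA* had 1.78, 2.40, 2.80, and 2.59 CPM in FBS and 1.68, 1.78, 2.59, and 2.50 CPM in CSS, and it was not called (log2 -0.17, 95% CI -0.40 to 0.05, edgeR adjusted *P* = 0.180, and log2 0.01 by limma on log2 TPM). *CD276* had 168, 135, 135, and 128 CPM in FBS and 170, 167, 190, and 179 CPM in CSS. The B7-H3 transcript was higher in CSS in all 4 same-numbered pairs, but 1 FBS library reached the range of CSS. It rose 1.25-fold (log2 0.32, SE 0.08, edgeR adjusted *P* = 0.00143), a call that was not made in batch 1 alone (log2 0.15, edgeR adjusted *P* = 0.144).

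**Figure D2:**
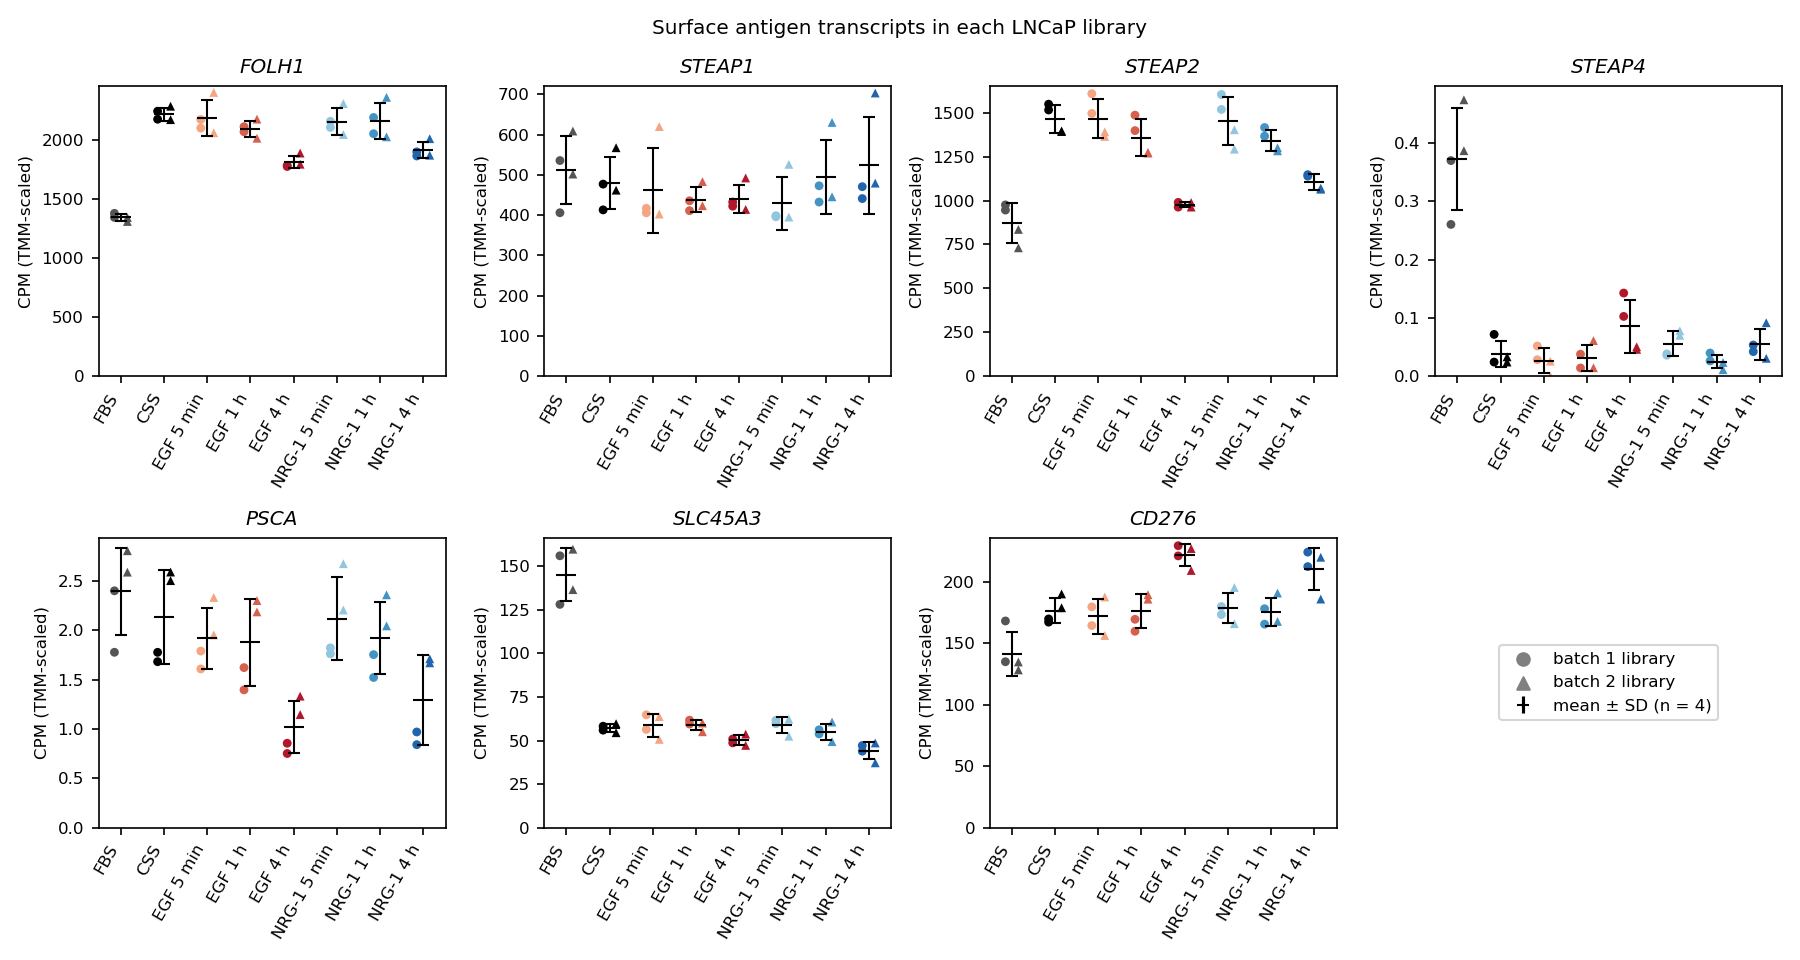
CPM (TMM-scaled) of each antigen in every library, by group, with circles for batch 1, triangles for batch 2, and the mean ± SD of 4 libraries. *FOLH1* and *STEAP2* are lowest in FBS, *SLC45A3* and *STEAP4* are highest there, and *PSCA* is lowest after 4 hours of either ligand.

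The sequences before the start sites are shown for the adjacent genes *STEAP1* and *STEAP2*, of which only the second was called in CSS, and for *SLC45A3*, which fell. They are the 250 bases upstream of the start in RefSeq (GRCh38.p14), and such windows were taken for 5 of the 7 genes. *STEAP1* is at chr7:90154219-90154468 on the plus strand, *STEAP2* (the first of 2 listed starts) at chr7:90211490-90211739 on the plus strand, and *SLC45A3* at chr1:205680510-205680759 on the minus strand. Capitals mark matches on either strand to 4 motifs, where overlapping matches merge. The motifs were AGAACA, a half-site bound by steroid receptors, TGANTCA of AP-1, CCGGAA of ETS factors, and GGGCGG, the GC box.
STEAP1: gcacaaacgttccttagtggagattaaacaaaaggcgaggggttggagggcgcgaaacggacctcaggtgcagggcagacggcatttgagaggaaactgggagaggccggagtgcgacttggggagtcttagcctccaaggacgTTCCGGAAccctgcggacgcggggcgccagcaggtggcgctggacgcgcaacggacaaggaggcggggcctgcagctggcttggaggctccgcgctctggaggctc
STEAP2: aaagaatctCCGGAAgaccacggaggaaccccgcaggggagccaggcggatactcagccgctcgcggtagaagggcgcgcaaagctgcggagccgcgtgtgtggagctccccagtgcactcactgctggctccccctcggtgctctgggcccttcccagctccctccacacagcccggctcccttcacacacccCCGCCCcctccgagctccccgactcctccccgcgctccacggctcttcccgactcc
SLC45A3: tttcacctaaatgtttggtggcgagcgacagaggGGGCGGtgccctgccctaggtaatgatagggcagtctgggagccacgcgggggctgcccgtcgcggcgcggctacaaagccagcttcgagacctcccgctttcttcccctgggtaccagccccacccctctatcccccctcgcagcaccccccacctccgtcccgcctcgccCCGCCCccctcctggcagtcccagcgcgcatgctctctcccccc

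The ETS core was matched 2 times in the *STEAP1* window, on opposite strands of TTCCGGAA, and 1 time in that of *STEAP2*. The GC box was matched 1 time for *STEAP2* and 2 times for *SLC45A3*. Over all 35116 windows of this length the ETS core was held by 14.5% and the GC box by 42.6%. The steroid receptor half-site, held by 12.4% of all windows, and the AP-1 motif, held by 6.57%, had no match in any window taken for these 5 antigens. GC content was 64.4% for *STEAP1*, 69.6% for the first start of *STEAP2*, and 69.2% for *SLC45A3*, with a median of 58.0% over all windows. The window of the second listed start of *STEAP2*, not shown, had 32.8% GC and no match to any of the motifs.

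The response to the HER ligands in CSS was examined next, by comparing each ligand and time with CSS alone. These comparisons share the CSS libraries, so that agreement between them is not independent. No antigen was called at 5 minutes or at 1 hour. At 5 minutes 0.00588% of all genes were called for EGF and 0% for NRG-1, and no antigen had an unadjusted *P* value below 0.05. At 1 hour 9.51% of all genes were called for EGF and 6.73% for NRG-1. The antigen counts were 0 for either ligand in DESeq2 as well, and 1 antigen, *STEAP2*, had an unadjusted *P* value below 0.05 in edgeR for each ligand, with log2 fold changes of -0.11 (95% CI -0.22 to -0.01, adjusted *P* = 0.233) for EGF and -0.12 (95% CI -0.23 to -0.02, adjusted *P* = 0.182) for NRG-1.

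After 4 hours of EGF, *FOLH1*, *STEAP2*, and *PSCA* fell and *CD276* rose. After 4 hours of NRG-1, *FOLH1*, *STEAP2*, *PSCA*, and *SLC45A3* fell and *CD276* rose. These were 4 antigens with EGF, where 49.2% of all genes were called (24.6% higher and 24.6% lower), and 5 with NRG-1, where 42.6% were called (21.6% higher and 21% lower). *PSCA* with EGF was the only DEG, where 9.56% of all genes were DEGs, and with NRG-1, where 7.41% were, no antigen was a DEG in edgeR. The median log2 fold change of the antigens was -0.19 with EGF and -0.22 with NRG-1, beside -0.02 and -0.01 over all genes tested.

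*PSCA* had the largest change that was called. It had 0.855, 0.751, 1.15, and 1.33 CPM after EGF and 0.841, 0.969, 1.71, and 1.67 CPM after NRG-1, against 1.68, 1.78, 2.59, and 2.50 in CSS. With EGF every library lay below the CSS libraries, whereas with NRG-1 the batch 2 libraries reached the batch 1 level of CSS. The fall was by 1.07 on the log2 scale with EGF (SE 0.12, edgeR adjusted *P* = 7.52e-09) and by 0.74 with NRG-1 (SE 0.11, edgeR adjusted *P* = 4.34e-06). *PSCA* was higher in batch 2 than in batch 1 over all groups (log2 0.52, edgeR adjusted *P* = 1.17e-08), and within each batch the ligand libraries at 4 hours were below the CSS libraries. Its counts in the EGF libraries, 60, 66, 91, and 87, are small beside those of the other called antigens.

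*STEAP2* had 962, 990, 989, and 963 CPM after EGF and 1147, 1139, 1071, and 1065 CPM after NRG-1. Both sets lay below all CSS libraries and the EGF set lay below all NRG-1 libraries. The reductase fell by 0.58 on the log2 scale with EGF (SE 0.05, edgeR adjusted *P* = 1.41e-10) and by 0.40 with NRG-1 (SE 0.05, edgeR adjusted *P* = 1.89e-07), that is to 0.668 and 0.756 of the CSS level.

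*FOLH1* had 1789, 1779, 1798, and 1893 CPM after EGF and 1868, 1903, 1875, and 2015 CPM after NRG-1. All 8 values were below the lowest CSS library and above the highest FBS library. PSMA transcripts fell by 0.29 on the log2 scale with EGF (SE 0.05, edgeR adjusted *P* = 2.28e-05) and by 0.22 with NRG-1 (SE 0.05, edgeR adjusted *P* = 0.00111). In batch 2 alone, with 2 libraries a group, neither was called (log2 -0.25 and -0.18, edgeR adjusted *P* = 0.148 and 0.337).

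*SLC45A3* had 50.9, 48.7, 53.7, and 47.2 CPM after EGF and 47.1, 43.9, 48.6, and 37.2 CPM after NRG-1. Both sets lay below the CSS libraries. It fell by 0.37 on the log2 scale with NRG-1 (SE 0.09, edgeR adjusted *P* = 0.000801), and with EGF the log2 fold change of -0.19 was not called (SE 0.09, edgeR adjusted *P* = 0.0700). In batch 2 alone the NRG-1 difference was not called (log2 -0.40, edgeR adjusted *P* = 0.147). With the replicate number as a block, the EGF difference was called (log2 -0.19, edgeR adjusted *P* = 0.00130).

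*CD276* had 229, 221, 227, and 209 CPM after EGF and 224, 212, 220, and 186 CPM after NRG-1. The EGF libraries stood above all CSS libraries, and 1 NRG-1 library lay inside the CSS range. The B7-H3 transcript rose 1.26-fold with EGF (log2 0.33, SE 0.08, edgeR adjusted *P* = 0.00103) and 1.19-fold with NRG-1 (log2 0.26, SE 0.08, edgeR adjusted *P* = 0.0104). Neither rise was called by limma on log2 TPM, where the adjusted *P* values were 0.124 to 0.168 and 0.388 to 0.468, nor by edgeR in batch 2 alone.

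*STEAP1* had 422, 432, 414, and 492 CPM after EGF and 441, 471, 479, and 703 CPM after NRG-1, both overlapping CSS. The log2 fold changes were -0.12 (95% CI -0.38 to 0.14, edgeR adjusted *P* = 0.475) and 0.12 (95% CI -0.14 to 0.38, edgeR adjusted *P* = 0.492). On log2 TPM limma called *STEAP1* lower with EGF (log2 -0.19, adjusted *P* = 0.0239 to 0.0349). *STEAP4* was counted 10, 9, 4, and 3 times with EGF and 4, 3, 6, and 2 times with NRG-1, against 2, 5, 3, and 2 times in CSS. The ratio of EGF to CSS in summed counts was 2.33 (exact 95% interval 1.13 to 5.06, counting error only), and the difference was not called by edgeR (log2 1.17, SE 0.51, adjusted *P* = 0.0581). Leaving out any of 4 single libraries, among them batch 1 replicate 2 of CSS with its 5 counts, brought the adjusted *P* value to between 0.0240 and 0.0398.

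**Figure D3:**
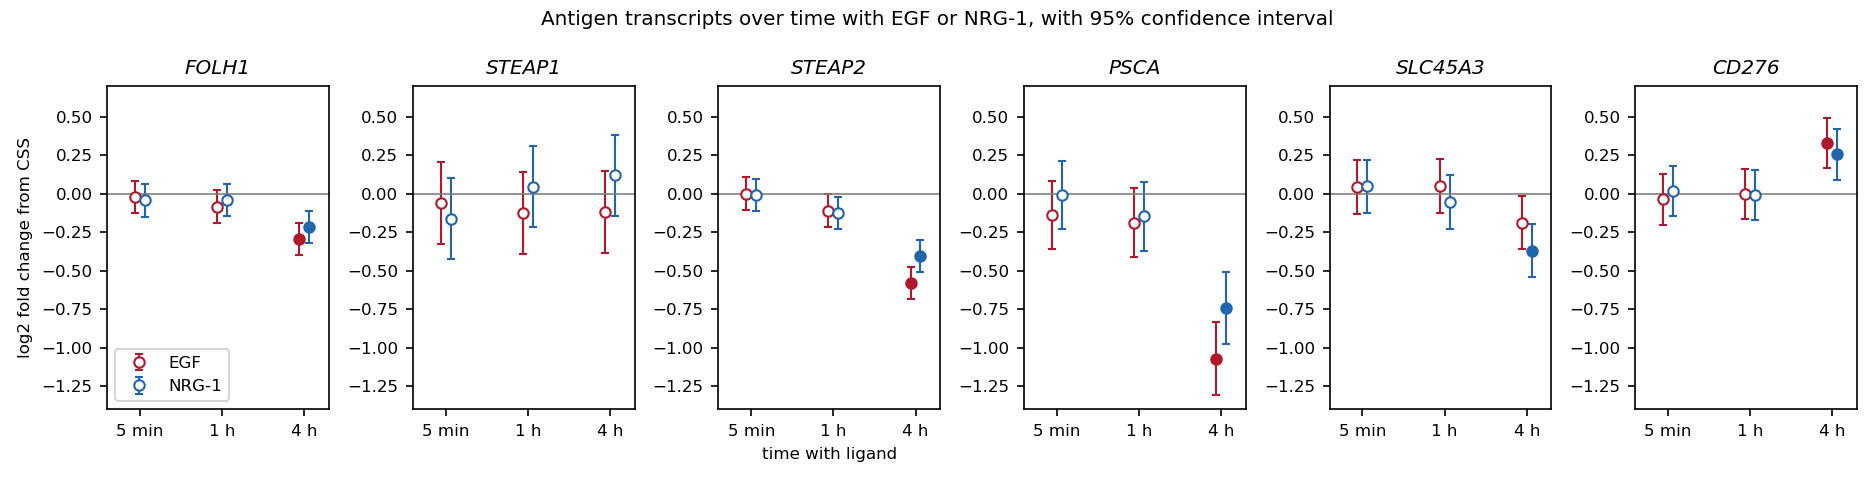
Log2 fold change from CSS with its 95% CI for 6 antigens after 5 minutes, 1 hour, and 4 hours of EGF (red) or NRG-1 (blue), filled where the adjusted *P* value was below 0.05. Filled points appear at 4 hours only, below 0 for *FOLH1*, *STEAP2*, *PSCA*, and, with NRG-1, *SLC45A3*, and above 0 for *CD276*.

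The ligands were compared with each other at matched times and the same dose. No antigen was called at 5 minutes, 1 hour, or 4 hours in edgeR, where 0%, 1.06%, and 1.66% of all genes were called. At 4 hours 3 antigens had an unadjusted *P* value below 0.05. The log2 difference of EGF minus NRG-1 was -0.18 for *STEAP2* (95% CI -0.28 to -0.07, edgeR adjusted *P* = 0.0813), -0.33 for *PSCA* (95% CI -0.58 to -0.08, edgeR adjusted *P* = 0.217), and 0.18 for *SLC45A3* (95% CI 0.01 to 0.36, edgeR adjusted *P* = 0.417). *STEAP2* was called by DESeq2 (adjusted *P* = 0.0182), and with the replicate number as a block edgeR called *STEAP2* (log2 -0.18, adjusted *P* = 0.0261) and *SLC45A3* (log2 0.19, adjusted *P* = 0.0233). For *FOLH1* the difference was -0.08 (95% CI -0.18 to 0.03) and for *CD276* 0.07 (95% CI -0.09 to 0.24), and these intervals bound the differences between the ligands that the data allow.

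The ligand groups at 4 hours were also set against FBS, to place the antigens relative to cells in full serum. These comparisons share the FBS libraries. Each called 6 of 7 antigens, where 62.4% of all genes were called for EGF and 57.2% for NRG-1. With EGF, *FOLH1* stayed 1.35-fold above FBS (log2 0.43, edgeR adjusted *P* = 3.23e-08) and *CD276* reached 1.57-fold (log2 0.65, edgeR adjusted *P* = 5.57e-08). *SLC45A3* was at 0.345 of FBS (log2 -1.53, edgeR adjusted *P* = 4.06e-15), and *PSCA* was at 0.421 (log2 -1.25, edgeR adjusted *P* = 2.13e-10). *STEAP4* was lower too, with 110 counts in FBS against 26, a ratio of 4.37 (exact 95% interval 2.83 to 6.99, counting error only; edgeR adjusted *P* = 8.43e-06).

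With NRG-1 the same comparison gave 1.42-fold for *FOLH1* (log2 0.51, edgeR adjusted *P* = 1.58e-09), 1.49-fold for *CD276* (log2 0.57, edgeR adjusted *P* = 5.24e-07), and 1.27-fold for *STEAP2* (log2 0.35, edgeR adjusted *P* = 1.27e-06). *SLC45A3* was at 0.304 of FBS (log2 -1.72, edgeR adjusted *P* = 4.38e-16), its lowest level in the series, and *PSCA* at 0.530 (log2 -0.91, edgeR adjusted *P* = 7.08e-08). *STEAP2* with EGF was 1.13-fold above FBS (log2 0.17, edgeR adjusted *P* = 0.00509), but the libraries overlapped and the call was lost without the batch term (adjusted *P* = 0.0825), with only these 2 groups in the fit (0.0833), in batch 1 alone (log2 0.02, adjusted *P* = 0.786), and without the libraries of batch 2 replicate 2 (log2 0.07, adjusted *P* = 0.150). *STEAP1* was not called in either comparison (log2 -0.21, edgeR adjusted *P* = 0.150 with EGF and log2 0.02, edgeR adjusted *P* = 0.888 for NRG-1), although with the replicate number as a block edgeR called it lower with EGF (log2 -0.21, adjusted *P* = 0.0103).

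**Figure D4:**
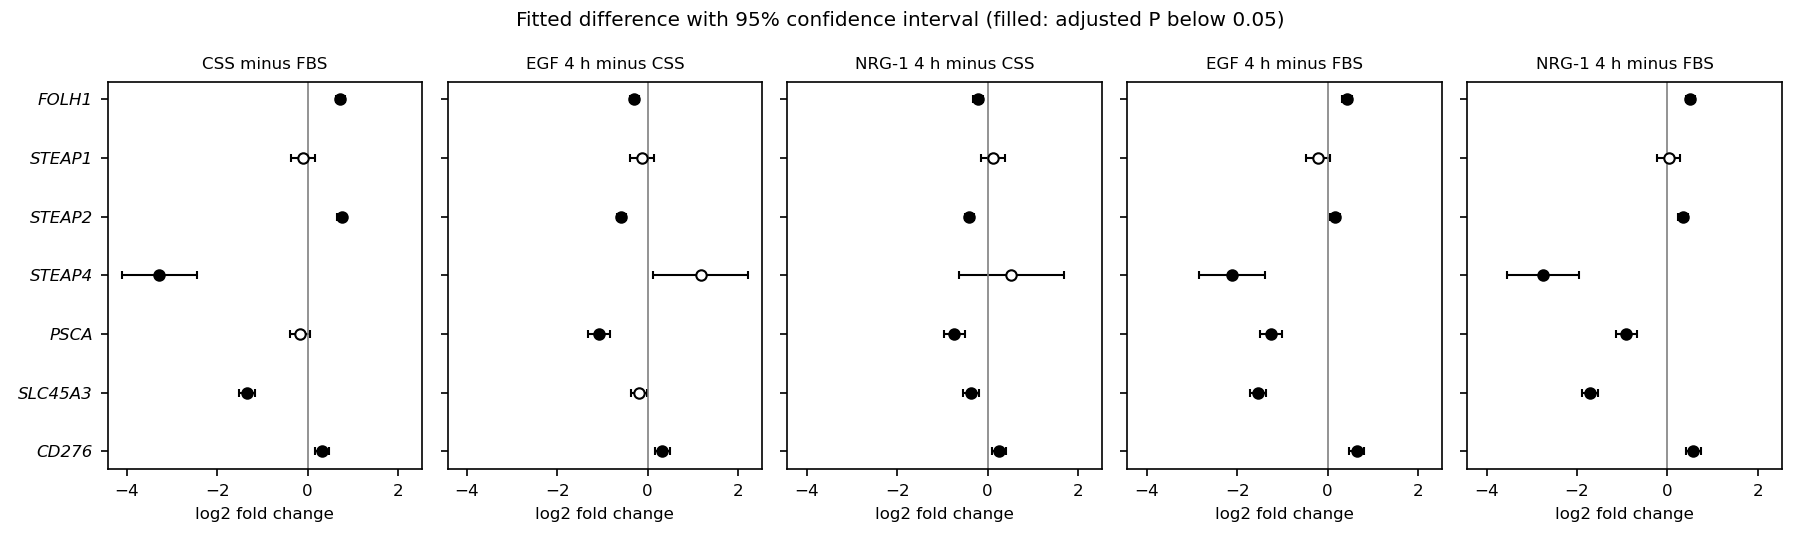
Fitted log2 fold change of each antigen with its 95% CI in 5 comparisons, filled where the adjusted *P* value was below 0.05. *FOLH1*, *STEAP2*, and *CD276* are above 0 in all 3 comparisons with FBS, *SLC45A3* and *STEAP4* are below 0 in these, and the intervals of *STEAP1* include 0 throughout.

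The groups were ordered by mean CPM for each antigen. *FOLH1* was highest in CSS (2224 ± 55.2 CPM, SD, *n* = 4), and the CSS, 5-minute, and 1-hour groups overlapped with their neighbors in the order. The next step down, to NRG-1 at 4 hours (1915 ± 68.2 CPM), was a gap without overlap, as was the last one, from EGF at 4 hours (1815 ± 52.6 CPM) to FBS (1347 ± 28.2 CPM). *STEAP2* had such gaps between the 1-hour groups and NRG-1 at 4 hours (1105 ± 43.8 CPM) and between the latter and EGF at 4 hours (976 ± 15.3 CPM), and EGF at 4 hours overlapped FBS (872 ± 112 CPM). *SLC45A3* and *STEAP4* had 1 gap, below FBS, and *PSCA*, *CD276*, and *STEAP1* had none between neighbors.

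The spread of *STEAP1* followed 1 library position. In batch 2 replicate 2 it was the highest of the 4 libraries in all 8 groups, at 483 to 703 CPM, against 395 to 536 CPM in all other libraries. In 7 of the 8 groups these libraries also gave the largest share of TPM to 82 ribosomal protein genes, with a median of 31.7% (27.7% to 34.8%) beside 28.0% (26.6% to 31.1%) in the others, and the part of this in the *STEAP1* values was not tested. Without these 8 libraries, an alternative added after the data were seen, the SE of the *STEAP1* log2 fold changes went from 0.13 to 0.07. The gene was then called lower with EGF at 4 hours than in FBS (log2 -0.21, edgeR adjusted *P* = 0.0111) and was not called in the other 11 comparisons. Over all groups *STEAP1* was higher in batch 2 than in batch 1 (log2 0.22, edgeR adjusted *P* = 0.00460).

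Near-identical copies of 2 antigens are annotated, so that reads may have been split between them. *FOLH1B* had 14.6 ± 0.723 CPM in FBS and 24.5 ± 0.896 in CSS (SD, *n* = 4), with a log2 fold change of 0.74 (edgeR adjusted *P* = 1.04e-12), and fell by 0.33 with EGF and by 0.30 with NRG-1 at 4 hours. *STEAP1B* had 14.2 ± 2.08 CPM in FBS and 14.5 ± 1.62 in CSS and was not called (log2 0.03, edgeR adjusted *P* = 0.827). Each copy was far below its antigen, and adding its counts to those of *FOLH1* or *STEAP1* changed no call. The antisense gene *STEAP2-AS1* had at most 0.300 CPM in a library, and the protocol recorded the strand. *STEAP3*, the remaining member of the reductase family, had 17.9 ± 2.55 CPM in FBS and 16.8 ± 0.653 in CSS and was called only with EGF at 4 hours (log2 0.27, edgeR adjusted *P* = 0.0136).

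A gene's counts per TPM reflect the length of its transcripts as weighted by the authors' software. Relative to the mean over all libraries, and scaled by 11283 genes, *FOLH1* in FBS was at 99.9% ± 0.0327 and in CSS at 100.0% ± 0.0248 (SD, *n* = 4). For *STEAP2* the group means lay between 99.3% and 100.8% and for *CD276* between 99.3% and 100.5%, with an SD within a group of up to 1.13 and 1.03. No shift of transcript length beyond these values was seen in *FOLH1*, *STEAP1*, *STEAP2*, *SLC45A3*, or *CD276*, and the counts of *PSCA* and *STEAP4* were too low for this measure.

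Over the 32 libraries, with the batch means removed, the genes whose log2 CPM was most like that of each antigen were picked among 6144 genes that varied between groups. The correlations describe these libraries, which share the 8 groups. *FOLH1* was nearest to *DDC* (*r* = 0.99), which encodes an enzyme of amine synthesis, to *ACPP* (0.99), which encodes prostatic acid phosphatase, and to *AMIGO2* (0.98). Those genes moved further than *FOLH1* did, with log2 fold changes in CSS against FBS of 1.18, 1.39, and 2.08. *STEAP2* was nearest to *MXI1*, *PLD1*, and *OPRK1* (each 0.97), of which *PLD1* and *OPRK1* had 2.83 and 2.09 in CSS and -2.09 and -2.03 after EGF for 4 hours. *SLC45A3* was nearest to *TCF19* (0.99), *CENPO* (0.98), and *MCM2* (0.98), of which *MCM2* is part of the replicative helicase, and *CD276* to *PYGB*, *FURIN*, and *TOLLIP* (each 0.97). *PSCA* was nearest to *NAV3*, *ABCC5*, and *FLJ37201* (each 0.94), and *STEAP1* to *COMMD10*, *LYRM5*, and *RPS14* (each 0.93), the last of which is a ribosomal protein gene. *STEAP4*, with few counts, was nearest to the androgen-induced protease gene *TMPRSS2* (0.90), *STK39* (0.89), and *CCNF* (0.88). Among the antigens, *FOLH1* and *STEAP2* had *r* = 0.88, *FOLH1* and *SLC45A3* -0.78, *PSCA* and *CD276* -0.76, and *FOLH1* and *STEAP1* -0.05.

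Genes related to the antigens were counted by list. Over all genes tested, 26.8% were called higher and 26% lower in CSS, 24.6% and 24.6% after 4 hours of EGF, and 21.6% and 21% after 4 hours of NRG-1. The counts of each list are to be read against these shares. The lists were chosen with earlier results of these data known, so that their counts are a description and not an independent test. Of 20 androgen-induced genes, 19 were lower and 1, *ACPP*, was higher in CSS than in FBS (median log2 -1.01, beside 0.01 over all genes), with the kallikrein gene *KLK2* changing most (log2 -3.99, edgeR adjusted *P* = 6.19e-20). All 7 androgen-repressed genes were higher (median 1.24), most of all *NOV* (log2 2.35, edgeR adjusted *P* = 1.60e-14). In this comparison *SLC45A3* and *STEAP4* had the sign of most of the first list, and *FOLH1*, *STEAP2*, and *CD276* that of the second. After 4 hours of EGF, 5 androgen-induced genes were higher and 12 lower (median -0.20), and after NRG-1 2 were higher and 9 lower (median -0.13). Of the androgen-repressed genes, 1 was higher and 3 lower with either ligand, and the largest change with EGF was in *MET*, a receptor tyrosine kinase gene (log2 3.44, edgeR adjusted *P* = 1.82e-18).

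Of 16 other surface targets of prostate cancer that were tested, 3 were higher and 6 lower in CSS (median -0.11), with the bombesin receptor gene *GRPR* changing most (log2 -1.86, edgeR adjusted *P* = 3.63e-05), and 10 were higher and 3 lower with either ligand (median 0.31 for EGF and 0.30 for NRG-1). Of all genes 26.8% were higher and 26% lower in CSS, 24.6% either way after EGF, and 21.6% higher and 21% lower after NRG-1. *CXCR4*, a chemokine receptor gene, changed most with EGF, from 0.404 ± 0.0483 to 29.8 ± 7.87 CPM (SD, *n* = 4; log2 6.18, edgeR adjusted *P* = 1.20e-20). Of 6 genes of the B7 family tested beside *CD276*, 2 were higher and 1 lower in CSS (median 0.36), 2 were higher and 3 lower with EGF (median -0.66), and 1 was higher and 2 lower with NRG-1 (median -0.33). The largest fitted changes were in *VTCN1* in CSS (log2 0.67, edgeR adjusted *P* = 0.153, not called) and in *ICOSLG*, which encodes a costimulatory ligand, with EGF (log2 2.77, edgeR adjusted *P* = 1.47e-16).

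In the iron and copper list, which shares *STEAP3* with the family above, 6 of 12 genes were higher and 2 lower in CSS (median 0.18), 2 higher and 6 lower with EGF (median -0.21), and 1 higher and 7 lower with NRG-1 (median -0.14). The shares over all genes were 26.8% higher and 26% lower in CSS, 24.6% either way after EGF, and 21.6% higher and 21% lower after NRG-1. The transferrin receptor gene *TFRC* changed most in CSS (log2 -0.67, edgeR adjusted *P* = 1.75e-08) and with EGF (log2 0.48, edgeR adjusted *P* = 4.83e-06). Of 14 genes of folate and glutamate handling, to which PSMA is linked by its substrates, 3 were higher and 8 lower in CSS (median -0.30), led by thymidylate synthase *TYMS* (log2 -1.58, edgeR adjusted *P* = 3.05e-19), whereas 2 were higher and 2 lower with EGF (median -0.09) and 1 higher and 2 lower with NRG-1 (median -0.03).

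Among the 9 tested copies and relatives of the antigens, 4 were higher and 1 lower in CSS (median 0.19), 4 higher and 4 lower with EGF (median -0.12), and 2 higher and 3 lower with NRG-1 (median 0.10). These counts stand beside 26.8% higher and 26% lower over all genes in CSS, 24.6% either way after EGF, and 21.6% higher and 21% lower after NRG-1. *SLC45A1* changed most in CSS (log2 0.86, edgeR adjusted *P* = 0.00648), and *LYPD3*, of the family of *PSCA*, with EGF (log2 -1.04, edgeR adjusted *P* = 3.41e-08). Of the 4 HER receptor genes, 2 were higher in CSS (median 0.46), and 2 were higher and 2 lower with either ligand (median 0.11 for EGF and 0.10 for NRG-1). *ERBB4* changed most in CSS (log2 2.05, edgeR adjusted *P* = 0.00204), at under 1 CPM, and *EGFR*, the receptor of EGF itself, with EGF (log2 1.54, edgeR adjusted *P* = 1.29e-09).

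**Figure D5:**
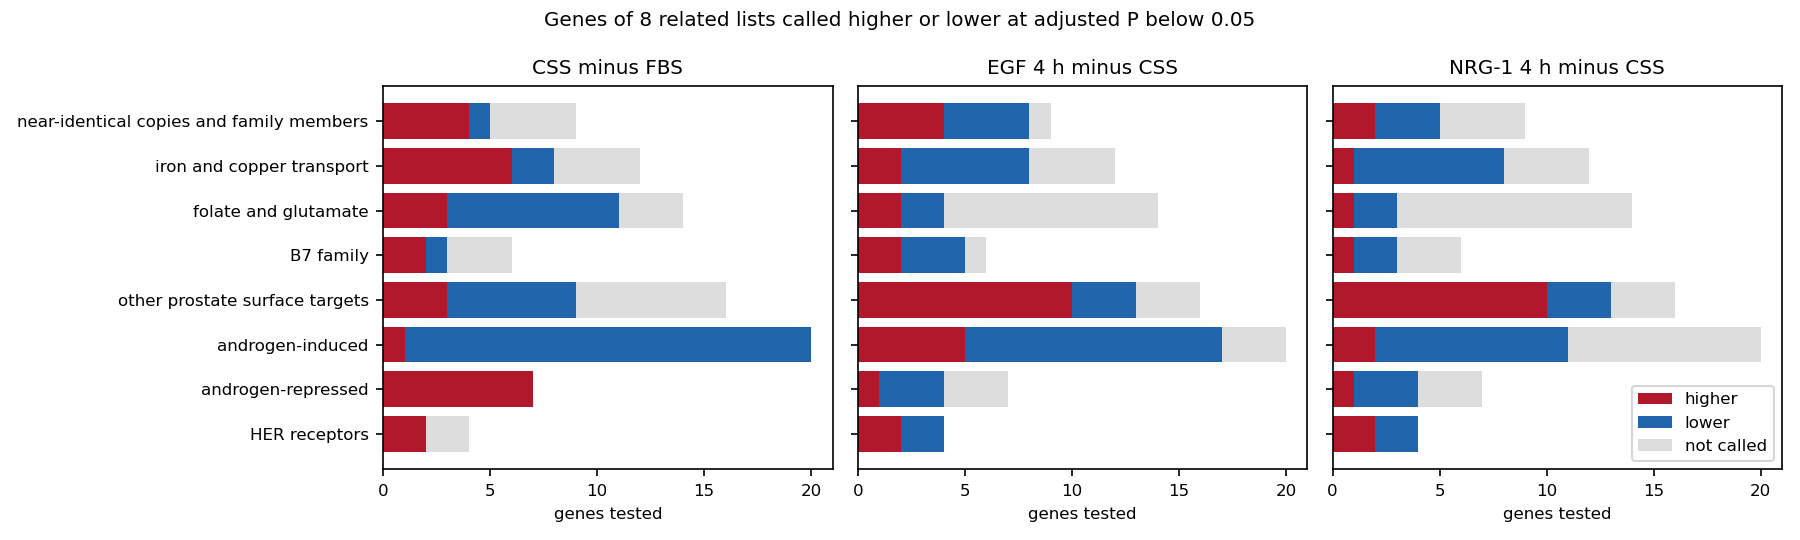
Number of genes in 8 related lists that were higher (red), lower (blue), or not called (gray) at an adjusted *P* value below 0.05 in edgeR, in CSS against FBS and after 4 hours of EGF or NRG-1 against CSS. Androgen-induced genes are nearly all blue in CSS, androgen-repressed genes are all red, and the other surface targets are mostly red with either ligand.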

How the data were processed

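RNA-Seq of LNCaP cells was measured in 32 stranded libraries, in 8 groups with 2 batches of 2 replicates each. According to the methods and processing notes, the authors trimmed reads with Trimmomatic 0.36, aligned them to hg19 with STAR 2.7.0f, and quantified genes with RSEM. The annotation release is not given in the sources used here. The authors deposited expected counts per gene, which are estimated and not normalized, and TPM, which RSEM scales for transcript length and for the library. Of the expected counts 11.2% were not whole, and they were rounded. Library totals had a median of 77866194.

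A gene was kept where 3 or more libraries had 5 or more counts (16995 genes kept, 8503 not), and was tested with edgeR 4.0.16 (R 4.3.3), with TMM scaling and a quasi-likelihood fit of group and batch over all libraries. Between batches 55.6% of genes differed. The Benjamini-Hochberg method was applied over all genes in each of 12 comparisons, and all adjusted *P* values are two-sided. CPM use TMM-scaled library sizes, log2 CPM for correlations used a prior count of 2, and exact intervals of count ratios cover counting error only. Scripts were tested on simulated data.

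Alternatives were DESeq2 1.42.0 (its test, and its size factors in edgeR), no filter on low counts or a minimum of 10 in all libraries, a fit without batch, a replicate block, fits of the 2 groups or of 1 batch on their own, limma 3.58.1 on log2 TPM (pseudocount 1 or 0.1, genes above 1 TPM or all), copies summed, and each library left out. Only the replicate block treated libraries that share a batch and replicate number as paired, and the main fit held batch alone. Deviations of such libraries from their group means correlated in 112 of 112 pairs of libraries (*r* = 0.13 to 0.57). These deviations keep the batch difference, so they say nothing of the replicate number by itself. With batch removed, *r* was -0.06 to 0.43 and exceeded 0.1 in 54 of the 112. Each such value occurs for both replicate numbers, because the 2 libraries of a group and batch then deviate by equal and opposite amounts.

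The antigens and related gene lists were chosen with earlier results of these data known. All 7 antigens are described. For each, the 3 genes of highest *r* were named, and for each list the gene of largest fitted change, some of which are not reported here. Promoter windows of 5 antigens came from RefSeq (GRCh38.p14) and were not joined to hg19 coordinates. Entries on chromosome 8, where *PSCA* lies, were left out.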

Additional observations from a re-analysis of the deposited data

Results flagged for a closer look

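Within each group of 4 libraries, 1 library of an antigen stood apart from the other 3 when its gap to the nearest exceeded Dixon's 95% critical value as a share of the range, which chance gives in about 1 of 20 groups, or 3 of the 56 groups tested. It was met 5 times. For *STEAP1*, batch 2 replicate 2 had 620.0 CPM after 5 minutes of EGF (the others 403 to 417), 526 CPM after 5 minutes of NRG-1 (395 to 399), and 703 CPM after 4 hours of NRG-1 (441 to 479). For *FOLH1*, batch 2 replicate 2 had 1893 CPM after 4 hours of EGF (1779 to 1798), still below all CSS libraries. For *CD276*, batch 1 replicate 1 of FBS had 168 CPM (128 to 135), and its difference between CSS and FBS was called without this library too. With edgeR and batch as a term, no difference between EGF and NRG-1 at a matched time passed the threshold for an antigen, whereas DESeq2 and the replicate block each made calls at 4 hours.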

How the results depend on the processing

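Of 84 results (7 antigens in 12 comparisons), 26 were called, and 19 of these kept direction and call under every alternative run. No called result changed sign. Of 3822 alternative values, 16 lost a call, 20 gained one, and 122 had the opposite sign with neither fit past the threshold. With 2 libraries a group, batch 2 alone called 2 antigens in place of 4 for EGF and 2 in place of 5 for NRG-1 at 4 hours against CSS. For EGF minus NRG-1 at 4 hours, where 0 were called, DESeq2 called 1 and the replicate block 2. There, 1 was called without the batch 2 replicate 2 libraries, an alternative chosen after seeing the data, and leaving out single libraries gave 0 to 1, with *STEAP2* called without FBS batch 2 replicate 2 (edgeR adjusted *P* = 0.0204) or EGF 4 h batch 2 replicate 1 (0.0417). *SLC45A3* with EGF at 4 hours against CSS was also called with only these groups (edgeR adjusted *P* = 0.0102) and without EGF 4 h batch 2 replicate 1 (0.0421), NRG-1 4 h batch 2 replicate 2 (0.0467), or all of batch 2 replicate 2 (0.0104). The replicate block changed 4 calls, each given beside its result, and no other call. The causes were not tested. Limma on log2 TPM moved the median of all genes by up to 0.19 in CSS against FBS and 0.12 in EGF 4 h against FBS. *STEAP4* was dropped by the TPM filter and by the minimum in all libraries, and without a TPM filter its log2 fold change in CSS was -0.15 (limma adjusted *P* = 1.01e-08), since the pseudocount exceeds its TPM.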
